A study of Homo sapiens with 4 samples.

Results

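BH3-only genes encode the proteins that start mitochondrial apoptosis, and the occupancy of the transcriptional repressor BCL6 around 8 of them was examined here: BCL2L11, BMF, HRK, BBC3, PMAIP1, BIK, BID and BAD. The 8 were named as a family, not by their peaks, although earlier results of these data were known. They are among 19974 genes that RefSeq lists as protein-coding on the autosomes and X. A BCL6 peak was counted for a gene when its summit, the base with the strongest signal, lay inside the gene or within 50 kb of either annotated end. In all, 18 peaks met this rule, 12 of the 5237 in replicate 1 and 6 of the 3536 in replicate 2.

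BCL6 was mapped by CUT&RUN, in which a nuclease tethered to an antibody cuts out the DNA on which the antibody sits, and that DNA is sequenced. The cells were SUDHL5, a line established from diffuse large B-cell lymphoma (DLBCL), and no treatment is named for them. A BCL6 antibody was used for 2 biological replicates and normal rabbit IgG for 2 more, all amplified with 14 PCR cycles. Peak lists of the BCL6 replicates were analysed, and the IgG libraries were not analysed here. Both replicates come from 1 line, and peaks carry no expression, so the labelled cell type was not checked against its markers.

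Proteins of this family carry a short BH3 helix with which they bind and neutralise survival proteins such as BCL2 and MCL1, or directly engage the pore formers BAX and BAK1. BCL2L11 encodes BIM, which removes self-reactive and cytokine-starved lymphocytes. BMF is tied to the cytoskeleton and to detachment from it, HRK was described in neurons deprived of growth factor, and BIK resides at the endoplasmic reticulum. BBC3 (PUMA) and PMAIP1 (NOXA) are classical p53 targets, BID is cleaved by caspases downstream of death receptors, and BAD is held inactive by phosphorylation from survival kinases. BCL6 holds germinal centre B cells in their proliferative state by repressing its targets.

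BCL6 peaks of both replicates coincided within the window of 4 of the 8 genes, BCL2L11, BMF, HRK and BAD. At BCL2L11 alone did they lie just upstream of the annotated start, without covering it. The 250 bases upstream of that start are shown because peaks of both replicates reached into them. The same stretches of BMF and HRK are shown beside it because no base of them fell in a peak of either replicate, although both genes held peaks further inside. Each is read 5′ to 3′ on the gene's strand from RefSeq, build GRCh38.p14. The positions are chr2:111120664-111120913 on the plus strand for BCL2L11, chr15:40108880-40109129 on the minus strand for BMF and chr12:116881442-116881691 on the minus strand for HRK. Capitals mark the 69 bases covered by the replicate 2 peak, of which the first 16 were also covered by the replicate 1 peak.
BCL2L11: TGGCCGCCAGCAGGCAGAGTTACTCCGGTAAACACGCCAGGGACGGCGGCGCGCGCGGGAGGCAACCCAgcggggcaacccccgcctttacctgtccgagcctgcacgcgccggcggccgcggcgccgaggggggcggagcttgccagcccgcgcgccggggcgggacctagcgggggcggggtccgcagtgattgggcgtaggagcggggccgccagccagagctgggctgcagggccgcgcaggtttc
BMF: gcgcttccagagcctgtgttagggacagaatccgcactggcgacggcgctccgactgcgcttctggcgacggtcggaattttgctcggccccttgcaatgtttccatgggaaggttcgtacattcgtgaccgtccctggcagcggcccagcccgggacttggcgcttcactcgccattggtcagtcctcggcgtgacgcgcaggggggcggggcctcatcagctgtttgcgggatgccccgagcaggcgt
HRK: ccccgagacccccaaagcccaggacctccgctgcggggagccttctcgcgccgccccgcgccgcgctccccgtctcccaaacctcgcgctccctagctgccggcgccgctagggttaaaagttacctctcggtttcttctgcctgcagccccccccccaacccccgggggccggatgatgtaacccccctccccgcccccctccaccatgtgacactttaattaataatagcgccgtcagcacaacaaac

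Start windows of 300 bases, 250 before and 50 after an annotated start, were at hand for 7 of the 8 genes, with 13 windows in all. The set of windows used here held none for BIK, so its strand and start were not used. The core of the known BCL6 site, TTCCTAGAA, was found in 0 of these 13 on either strand, against 0.373% of all 35116 windows. The relaxed form TTCNNNGAA, which STAT factors also bind and which includes the core, was likewise found in 0 of the 13, against 7.66% of all windows. The forkhead site TGTTTAC was found in 1 of the 13, that of BCL2L11, against 3.42% of all windows. It is read there as GTAAACA at bases 28 to 34 of the window, within the capitals above and beyond the end of the replicate 1 peak. Its first base lay 223 bases before the start, 117 bases from the replicate 1 summit and 60 bases from the replicate 2 summit. A match describes the letters of a window, not a bound site. The windows also held little peak sequence. The BCL2L11 window held 16 bases of a replicate 1 peak and 69 of a replicate 2 peak, with both summits outside it. Upstream of BMF and HRK there were 0 such bases. Windows of BID and of BAD overlap among themselves, so the 13 are not separate looks. Whether sequence under the peaks holds the BCL6 site was not tested. The BCL2L11 window was rich in G and C, at 74.7% against a median of 58.7% over all windows, and held 39 CpG dinucleotides against a median of 14. Among members without a peak near the start, PMAIP1 had 71.3% and 42 CpG. The windows of BID ranged from 48.7% to 78.0% and from 6 to 37 CpG. Below BCL2L11 on both measures were HRK (66.3% and 25 CpG), BBC3 (48.0% and 5 CpG) and every window of BMF and of BAD.

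The first question was which members had a peak at all. BCL2L11, BMF, HRK, PMAIP1, BIK and BAD had at least 1 peak in replicate 1 (6 of 8), where 29.5% of all protein-coding genes did. BCL2L11, BMF, HRK and BAD had one in replicate 2 (4 of 8), where 23.3% of all protein-coding genes did. At each of these 4 genes, peaks of both replicates overlapped by at least 1 bp, which was the case at 10.2% of all protein-coding genes. BBC3 and BID had no peak in either list. With 8 genes, each counts for 12.5%, and no test was run on these shares.

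Windows of the members were of ordinary size. They spanned 104 to 148 kb with a median of 120 kb, against a median of 124 kb over all protein-coding genes. Summits per Mb of window came to 12.2 in replicate 1 and 6.09 in replicate 2 for the members, against 3.29 and 2.35 over all protein-coding genes, whose windows overlap and count some summits more than once. Of the 18 member peaks, 10 had their summit inside the member itself. For 14 of the 18, no other protein-coding gene lay nearer than the member. For neither count was the matching share over the windows of all protein-coding genes worked out.

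**Figure D1:**
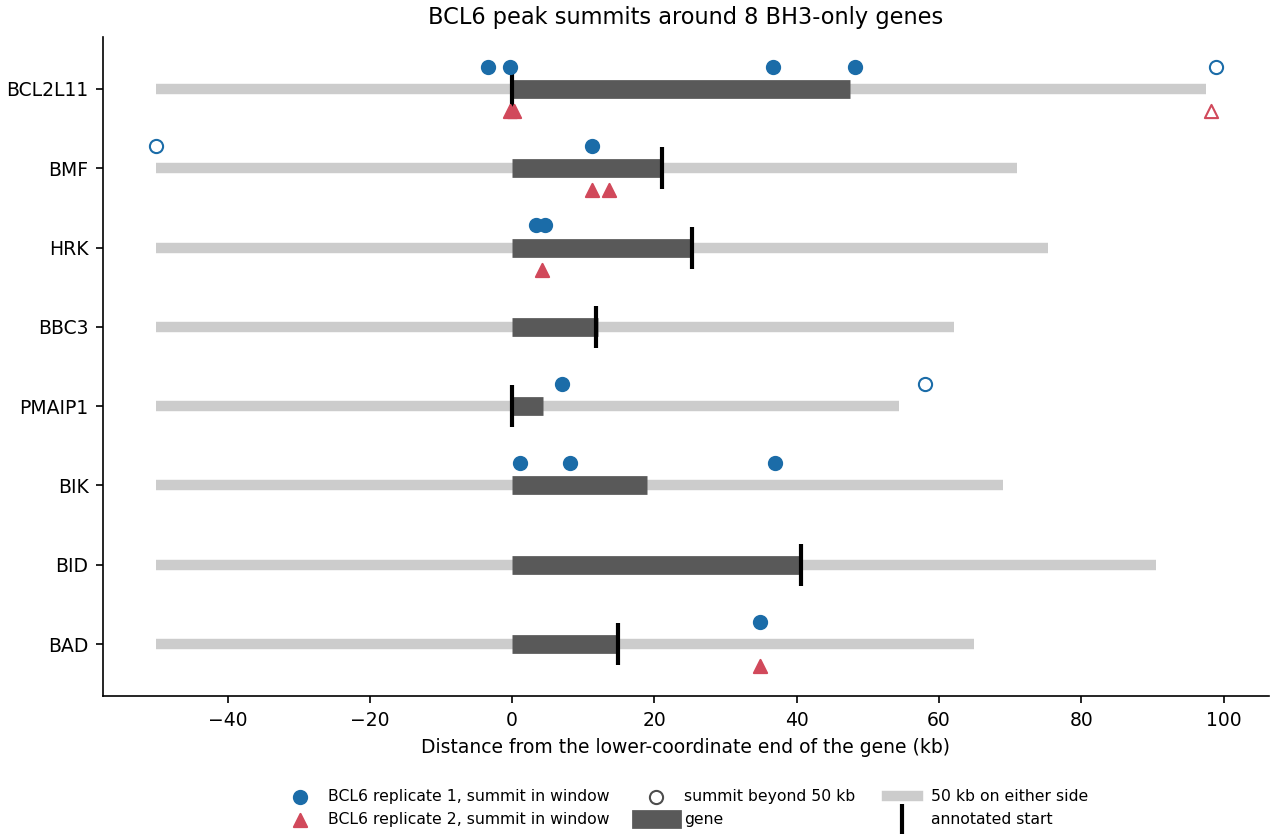
Positions of BCL6 peak summits around each gene, in kb from the gene's lower-coordinate end, with replicate 1 as circles above and replicate 2 as triangles below the gene (dark bar) and its 50 kb margins (pale bar). The vertical tick marks the annotated start where a start window was at hand (all but BIK), and open symbols are summits beyond 50 kb. BBC3 and BID have none, and BIK and PMAIP1 have replicate 1 summits only.

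At BCL2L11 (chromosome 2, 111120914 to 111168445) there were 4 peaks in replicate 1 and 2 in replicate 2. At least 4 replicate 1 peaks were found for 2.54% of all protein-coding genes, and at least 2 replicate 2 peaks for 7.4%. The replicates coincided just upstream of the start. The replicate 1 peak ran from 111119880 to 111120679, was 800 bp wide and had its summit 340 bp upstream. It lay wholly within the replicate 2 peak, which ran from 111119567 to 111120732, was 1166 bp wide and had its summit 283 bp upstream. The summits were 57 bp apart.

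The BCL2L11 start peaks were high in fragments but modest in enrichment. Fold enrichment is the authors' ratio of the summit pileup to the background their peak caller set for that position, from a control that is not stated, and it was 3.12 for the replicate 1 peak and 2.90 for the replicate 2 peak. The −log10 q, where q is the peak caller's adjusted p-value, was 6.50 and 3.87 in the same order, and the smallest in each list was 1.31. The pileup, the number of fragments over the summit, was solved from these values and came to 42 in replicate 1 (exact Poisson 95% interval 30.3 to 56.8) over a background of 12.8. In replicate 2 it was 32 (21.9 to 45.2) over a background of 10.4. By pileup these peaks stood at the 91.5th and 85.4th percentile of their lists on chromosomes 1 to 22 and X, and by fold enrichment at the 30.3rd and 12.9th. Such an interval covers counting error and no other, as PCR duplicates are not separate molecules.

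A second replicate 2 peak lay 191 bp inside BCL2L11, from 111121088 to 111121523. It was 436 bp wide, with a fold enrichment of 2.62 and a −log10 q of 1.71, and no replicate 1 peak overlapped it. Together the replicate 2 peaks flanked the annotated start, leaving it uncovered.

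The 3 remaining BCL2L11 peaks belonged to replicate 1 and had no replicate 2 peak over them. One lay 36.7 kb inside the gene, from 111157413 to 111157896, and was 484 bp wide with a fold enrichment of 4.14 and a −log10 q of 6.73. Its pileup was 28 (18.6 to 40.5) over a background of 6.01. One lay 667 bp beyond the 3′ end, from 111168821 to 111169484, and was 664 bp wide with a fold enrichment of 4.59 and a −log10 q of 5.04, from a pileup of 18 (10.7 to 28.4) over a background of 3.14. These 2 were thus more enriched than the start peak of the same library, from fewer fragments. The last lay 3.44 kb upstream, from 111117251 to 111117739, inside the neighbouring gene ACOXL. It was 489 bp wide, with a fold enrichment of 2.67 and a −log10 q of 1.80.

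At BMF (chromosome 15, 40087890 to 40108879, minus strand) all counted peaks lay inside the gene. The replicates coincided 9.82 kb downstream of the first annotated start in replicate 1 and 9.78 kb downstream in replicate 2, with summits 43 bp apart. RefSeq gives a second start, from which these summits were 7.91 and 7.87 kb away. The replicate 1 peak ran from 40098580 to 40099109 (530 bp) and the replicate 2 peak from 40098996 to 40099347 (352 bp), sharing 114 bp. The replicate 1 peak was enriched 2.44-fold and the replicate 2 peak 4.17-fold, and −log10 q was 1.65 and 4.87. The pileups were close, 23 (14.6 to 34.5) in replicate 1 and 21 (13.0 to 32.1) in replicate 2, while the backgrounds were 8.84 and 4.28.

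The most enriched peak of the whole family was the second BMF peak, found in replicate 2 alone. It ran from 40101206 to 40101640, was 435 bp wide and had its summit 7.38 kb downstream of the first start. Its fold enrichment was 6.03 and its −log10 q 12.5, which ranked 217th among the replicate 2 peaks on chromosomes 1 to 22 and X. The pileup was 32 (21.9 to 45.2) over a background of 4.47. No replicate 1 peak overlapped it, so the strongest peak among these genes rests on 1 library.

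At HRK (chromosome 12, 116856144 to 116881441, minus strand) the peaks lay inside the gene toward its 3′ end. The overlapping peaks ran from 116860589 to 116861025 in replicate 1 (437 bp) and from 116860306 to 116860774 in replicate 2 (469 bp). They shared 186 bp, with summits 400 bp apart, 20.7 and 21.1 kb downstream of the start. Replicate 1 gave a fold enrichment of 2.44 and replicate 2 one of 3.40, and −log10 q was 1.65 and 2.24. The pileups were 23 (14.6 to 34.5) over 8.84 in replicate 1 and 15 (8.40 to 24.7) over 3.71 in replicate 2.

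The replicate 1 values of HRK and BMF were identical, since both had a pileup of 23 over a background of 8.84. In replicate 1, 19 peaks shared this fold enrichment and −log10 q. Both therefore sat at the 4.51st percentile of replicate 1 by −log10 q, close to the calling threshold. A second replicate 1 peak at HRK, from 116859452 to 116859809 (358 bp), had a fold enrichment of 3.52 and a −log10 q of 3.34. It lay 21.9 kb downstream of the start, and no replicate 2 peak overlapped it.

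At BAD (chromosome 11, 64269828 to 64284704, minus strand) no peak lay in the gene or near its start. The peaks counted for it were 20.0 kb upstream of the start, and 6 other protein-coding genes lay nearer to them. Their summits were inside CATSPERZ, and the nearest end of the next gene, ESRRA, was within 1 kb. The replicate 1 peak ran from 64304057 to 64304921 (865 bp) and the replicate 2 peak from 64304034 to 64304940 (907 bp), with summits 37 bp apart. This was the pair with the closest summits and, in replicate 2, the highest pileup among the 6 peaks.

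The BAD pair also had the highest −log10 q of the 4 pairs when the lower value of both replicates is taken. Enrichment was 2.91-fold for replicate 1 and 3.55-fold for replicate 2, and −log10 q was 5.80 and 6.50. The pileups were 43 (31.1 to 57.9) over 14.1 in replicate 1 and 35 (24.4 to 48.7) over 9.13 in replicate 2. Where a pair was counted for a gene only if no other protein-coding gene lay nearer, BAD dropped out and BCL2L11, BMF and HRK were left (3 of 8), against 4.74% of all protein-coding genes.

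**Figure D2:**
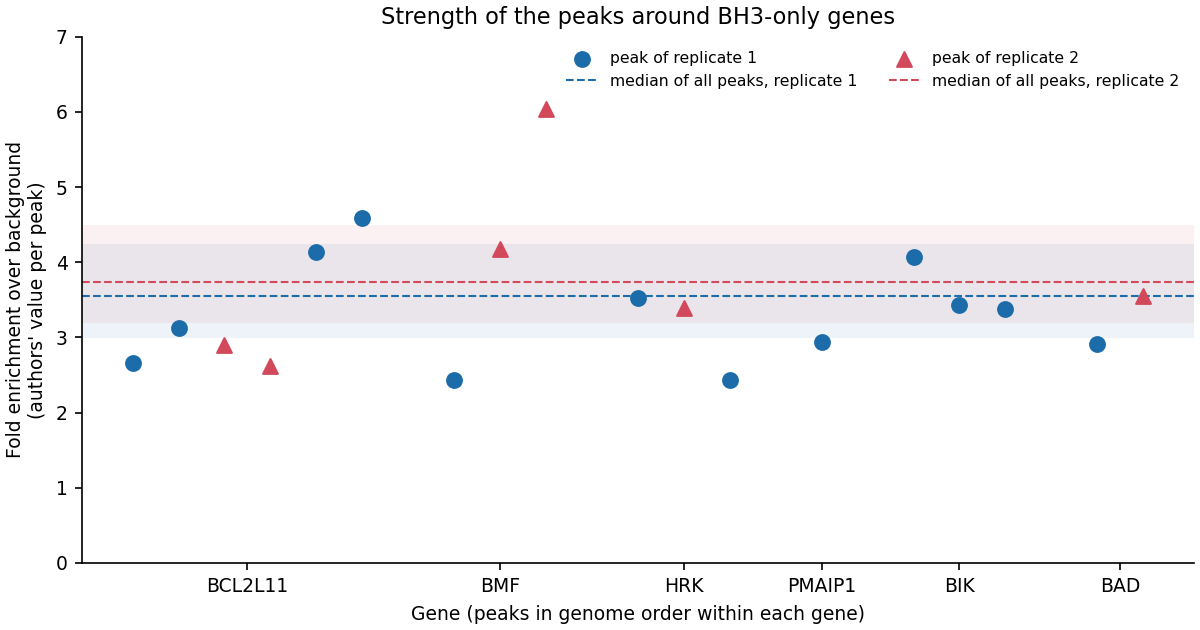
Fold enrichment given by the authors (y axis) for each of the 18 peaks, grouped by gene on the x axis in genome order, with replicate 1 as circles and replicate 2 as triangles. Dashed lines are the medians of all peaks, 3.55 in replicate 1 and 3.74 in replicate 2, and shaded bands hold the middle 50% of each list. The BMF peak of replicate 2 at 6.03 stands highest, and the replicate 1 peaks of BMF and HRK at 2.44 stand lowest.

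At BIK (chromosome 22, 43110750 to 43129712) there were 3 peaks, all of replicate 1. At least 3 replicate 1 peaks were found for 4.89% of all protein-coding genes. One was 1.13 kb inside the lower-coordinate end, from 43111590 to 43111962 (373 bp), with a fold enrichment of 4.06 and a −log10 q of 4.36. One was 8.08 kb inside it, from 43118538 to 43118918 (381 bp), with 3.44 and 4.12 for the same measures. The third lay 18.0 kb beyond the upper end, from 43147393 to 43147998 (606 bp), where TSPO at 3.81 kb was the nearest gene, with a fold enrichment of 3.38 and a −log10 q of 3.07.

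The BIK pileups were 19, 24 and 19 in this order, each within the range of the other members. The nearest replicate 2 peak lay 393 kb from BIK. Whether BCL6 was there in replicate 2 below the calling threshold cannot be read from a list of peaks.

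At PMAIP1 (chromosome 18, 59899996 to 59904305) a single replicate 1 peak was counted. It ran from 59906969 to 59907239, 2.74 kb beyond the 3′ end, and at 271 bp was the narrowest of the 18. Its fold enrichment was 2.94, its −log10 q 1.67 and its pileup 15 (8.40 to 24.7) over a background of 4.44. The nearest replicate 2 peak was 1260 kb away. By −log10 q the PMAIP1 peak stood at the 5.16th percentile of replicate 1.

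For BBC3 (chromosome 19, 47220824 to 47232860) and BID (chromosome 22, 17734138 to 17774665) no summit was within 50 kb. The nearest to BBC3 was 251 kb away in replicate 1 and 434 kb away in replicate 2. The nearest to BID was 301 kb away in replicate 1 and 95.8 kb away in replicate 2, where the summit lay inside BCL2L13, another BCL2 family gene.

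The 50 kb limit left out 4 peaks that lay within 60 kb. At BCL2L11 the replicates overlapped again by 287 bp, with summits 51.4 kb beyond the 3′ end in replicate 1 and 50.7 kb beyond it in replicate 2, inside the long noncoding RNA gene MIR4435-2HG. Fold enrichment there was 3.85 and 4.84, and −log10 q was 4.63 and 5.002. At PMAIP1 a replicate 1 peak lay 53.7 kb beyond the 3′ end (fold enrichment 4.95, −log10 q 5.08), stronger than the one that was counted. At BMF a replicate 1 peak lay 50.1 kb beyond the 3′ end, inside SRP14 (3.36 and 2.01). The farthest peaks that were counted were those of BAD at 20.0 kb and of BIK at 18.0 kb, so none lay close inside the limit.

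Across the family, median fold enrichment was somewhat below that of the whole list in both replicates. The list median was exceeded by 3 of the 12 replicate 1 peaks and 2 of the 6 replicate 2 peaks. By −log10 q, 6 of the 12 and 4 of the 6 exceeded it. The 12 replicate 1 peaks had fold enrichments of 2.44 to 4.59 with a median of 3.25, against 3.55 over all replicate 1 peaks. The 6 replicate 2 peaks had 2.62 to 6.03 with a median of 3.47, against 3.74 over all replicate 2 peaks. The median −log10 q was 3.73 in replicate 1, against 3.94 for the whole list, and 4.37 in replicate 2, against 3.77. A −log10 q of at least 5 was reached by 4 of the 12 peaks in replicate 1, namely 3 at BCL2L11 and 1 at BAD, and by 2 of the 6 in replicate 2, at BMF and BAD. Of all peaks, 34.9% reached it in replicate 1 and 32.7% in replicate 2, so the members' shares were near those of the lists. Median widths were 486.5 bp in replicate 1 and 452.5 bp in replicate 2, against 454 and 435 bp for the whole lists.

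**Figure D3:**
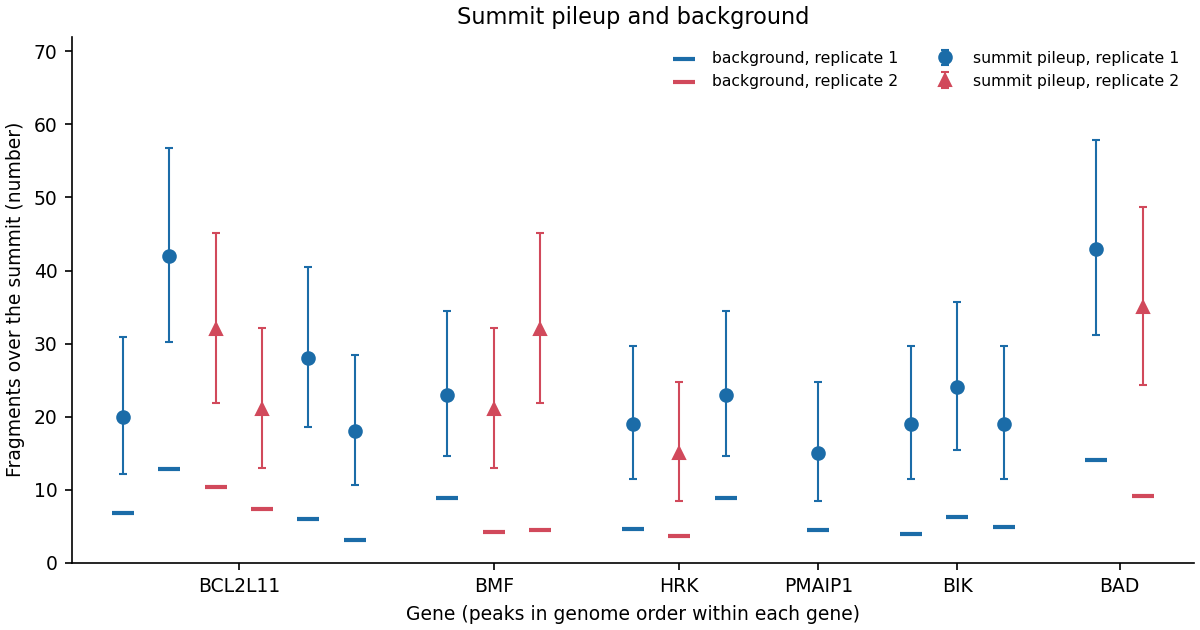
Number of fragments over the summit (y axis) with its exact Poisson 95% interval, and the background as a bar of the same colour, for the 18 peaks in the same order as the plot of fold enrichment. Every interval lies above its background, which follows from the peaks having been called over that background and is no separate evidence. The replicate 1 pileups of BCL2L11 just upstream of the start and of BAD reach 42 and 43. They stand over the highest backgrounds, 12.8 and 14.1.

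The picture by distance was similar at smaller windows. Within 1 kb of the gene, overlapping pairs were found at BCL2L11, BMF and HRK (37.5%), against 4.43% of all protein-coding genes, and within 100 kb at 4 of 8 (50%), against 15.1%. By threshold the family lost more. When a −log10 q of 5 or more was required, BAD was the only member with an overlapping pair (12.5%), against 4.49% of all protein-coding genes. When 2 or more was required, BCL2L11 and BAD had one (25%), against 8.77%.

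**Figure D4:**
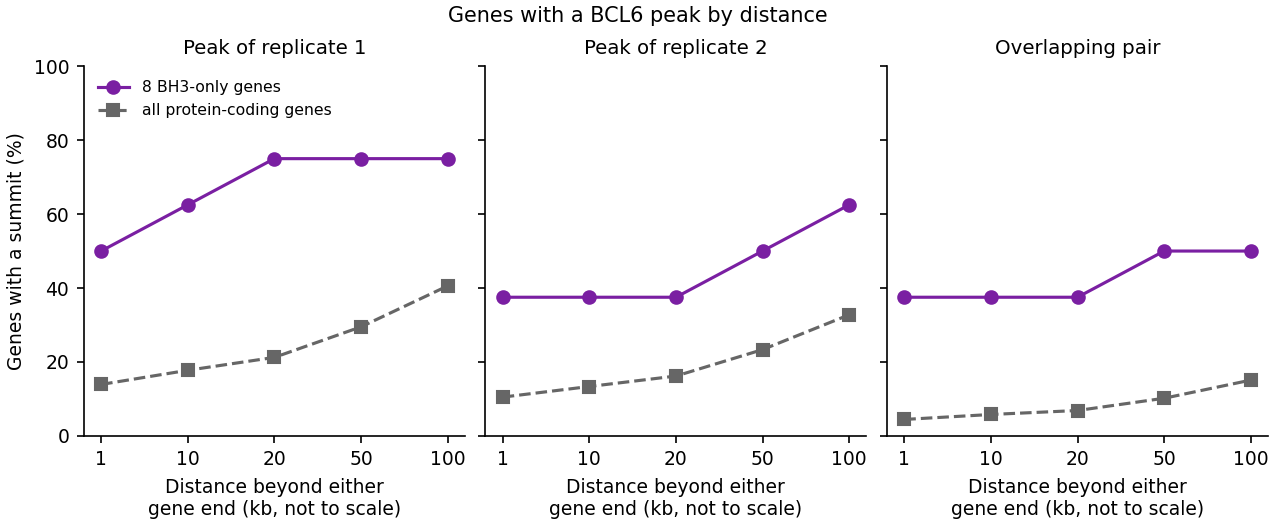
Percentage of genes with a BCL6 summit (y axis) in the gene or within 1, 10, 20, 50 or 100 kb of either end (x axis, evenly spaced), for the 8 BH3-only genes (circles) and all 19974 protein-coding genes (squares). Panels show peaks of replicate 1, of replicate 2 and overlapping pairs. Each BH3-only gene counts for 12.5%, and overlapping pairs stand at 37.5% up to 20 kb and at 50% from 50 kb.

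Other genes of the pathway were read by the same rule. Among 16 further BCL2 family genes, covering survival proteins, pore formers and relatives, MCL1 was the only one with an overlapping pair (6.25%, against 10.2% of all protein-coding genes). A peak of either replicate was found at 5 of the 16, namely MCL1, BAK1, BCL2L13, BCL2L14 and BCL2L15, against 37.3% of all protein-coding genes, and at 6 of the 8 BH3-only genes. The survival genes BCL2, BCL2L1, BCL2L2 and BCL2A1 and the pore former BAX had none in either list.

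MCL1 had 4 peaks in replicate 1 and 3 in replicate 2. Its most enriched pair, by the lower of both fold enrichments, had summits 11.4 kb outside the gene in replicate 1 and 11.2 kb in replicate 2. Fold enrichments were 3.75 and 3.99 in the same order, with −log10 q of 12.8 and 11.2 and pileups of 58 and 48. These pileups exceed those of every BH3-only peak. Of 10 genes that act after mitochondria are breached, 0 had an overlapping pair, while CASP9, CYCS and ENDOG had a peak in replicate 1.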

How the data were processed

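BCL6 CUT&RUN peak lists of 2 SUDHL5 replicates were used, grouped by the sample titles. The submitters' processing notes name the build hg38 and, among other tools, the aligner Bowtie2, the peak caller MACS2 and deepTools. Their versions and settings, and the control the caller used, are not stated in the sources used here. Each BCL6 sample had its own deposited list. The deposited columns give a fold enrichment (a ratio), −log10 of p and of q, and a score, which was not used. Positions are given 1-based. Library totals are unknown. The pileup at each summit was solved from the authors' fold enrichment, (pileup + 1) / (background + 1), and the Poisson −log10 p. It was recovered within 0.001 for 5233 of 5237 and 3532 of 3536 peaks, and for all 18 reported peaks. The solver was tested on simulated data.

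Genes, strands and start windows came from RefSeq GRCh38.p14. Sequences were read from those start windows alone, and the gene table gives only gene ends, so exons, introns and untranslated regions were not separated. Members and lists were chosen with earlier results of these data known. The text names all 8 members, the gene nearest each peak and pathway genes with overlapping pairs (up to 6), and other names were chosen after their values were seen. Counts are descriptive, without a test. Python 3.11.15, pandas 2.3.3 and scipy 1.17.1 were used. Alternatives were other windows, stricter −log10 q, other matching rules and leaving out a replicate.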

Additional observations from a re-analysis of the deposited data

How the results depend on the processing

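The 5 counts of BH3-only genes stayed within 1.5 times their values with windows of 10, 20 or 100 kb and with any base of a peak counted. Peaks of −log10 q of at least 5 gave 2 genes with a peak in replicate 1 and 2 in replicate 2. Of all protein-coding genes, 14.1% and 9.82% had such a peak. An overlapping pair at this threshold was left at 1 gene (BAD), against 4.49% of all protein-coding genes. There was 1 gene with a peak in both and 3 with a peak in either, for which no such share is given. Overlapping pairs were at 2 genes with −log10 q of at least 2, against 8.77% of all protein-coding genes. They were at 2 genes with a reciprocal overlap of at least 50%. In each case these were BCL2L11 and BAD. Pairs were at 3 genes with summits within 200 bp, where HRK was lost, and at 4 within 1 kb. For reciprocal overlap and summit distance, no share over all protein-coding genes was worked out. The cause was not tested. For the other BCL2 family genes, checked under the same settings after the data had been seen, the count went to 2 within 100 kb. Genes with a peak in either replicate numbered 4 to 6 when 1 replicate was left out. No paired analysis was possible because the IgG libraries were not analysed here. Pileups of 15 to 43 limit what can be said of a region found in 1 list: with few fragments, the lack of a second peak does not show that BCL6 was absent.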
